A study of Mus musculus with 2 samples.

Results

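Semaphorins are guidance proteins, plexins are their receptors, and neuropilins are co-receptors that secreted semaphorins need for most of their signalling. Members were all genes with a symbol of Sema or Plxna to Plxnd and a number, or the symbol Nrp1 or Nrp2, which gave 34 of the 55536 genes in the tables. They comprised 20 semaphorins, 9 plexins, 2 neuropilins and 3 antisense RNAs of Plxna4 that the symbol rule also picked up, so that 31 were protein coding. The tissue was left cerebral cortex of mice of the C57BL/6 substrain B6NCrl at 6 months of age, and poly(A) RNA was sequenced from a 20 ng input after tagmentation of the cDNA with the Nextera transposase. The 2 libraries, replicate 1 and replicate 2, formed 1 group with no treatment, transgene or second genotype to set it against. They shared 1 donor entry and had separate sample records, so only the replicate labels speak for separate animals. One label field called the tissue male and another gave the sex as not collected.

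Secreted semaphorins of class 3 bind a neuropilin that is joined to a class A plexin, while the membrane-bound classes mostly bind plexins directly. A plexin that has bound its ligand acts through its inner portion on small GTPases and so on actin and microtubules, and growth cones turn or collapse. In the adult cortex the family is known for its part in synapse number, spine shape and the perineuronal nets around inhibitory neurons, and endothelium, microglia and oligodendrocytes also use it.

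The gene tables held 51888490 fragments in replicate 1 and 26776276 in replicate 2. Levels are given as TPM, a share of all transcripts that is scaled per length and may be set between genes. Ratios between the libraries are of fragments scaled to library size (CPM) and are log2 values of replicate 1 over replicate 2. Of 21 tissue markers, the neuronal gene Snap25 had 2359 TPM in replicate 1 and 2730 TPM in replicate 2, and the oligodendrocyte gene Mbp had 2061 and 2049 TPM. The cerebellar marker Gabra6 was at 0.040 TPM in replicate 1 and was listed at 0 in replicate 2. The 5 markers of other brain regions summed to 304 TPM in replicate 1 and 258 TPM in replicate 2, most of it Ppp1r1b at 197 and 169 TPM. Fewer cells of a type and less RNA per cell cannot be told apart in such tissue RNA.

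The ligands held most of the family's RNA. The 20 semaphorins summed to 163.75 TPM in replicate 1 and 125.9 TPM in replicate 2, a mean of 144.8 ± 26.8 TPM (SD, n = 2). The 9 plexins summed to 57.4 and 58.4 TPM (57.9 ± 0.714 TPM), and the 2 neuropilins to 8.09 and 10.1 TPM (9.10 ± 1.42 TPM). In TPM the plexin sums lay close together and the semaphorin sums did not. The plexin sum of replicate 2 held short transcripts that were listed at 0 in replicate 1, such as Plxnd1-204 (4.40 TPM) and Plxna1-204 (1.32 TPM). By fragments the median log2 ratio of the 9 plexins was 0.30, against 0.03 over all tested genes, so the evenness is one of TPM. Without the 5 semaphorins that differed most between the libraries, a setting chosen after their values were seen, the semaphorins summed to 106 TPM in replicate 1 and 102 TPM in replicate 2 (104 ± 2.50 TPM).

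With detection set at 1 TPM or more in each library, 26 members were detected: 15 of 20 semaphorins, all 9 plexins and both neuropilins. Below that level in at least one library were Sema3d, Sema3g, Sema3f, Sema4c and Sema6c. The closest to the threshold was Sema6c, at 4.37 TPM in replicate 1 and 0.99 TPM in replicate 2. When the 31 coding members were put in order of mean TPM, the values of 4 of the 30 neighbouring pairs did not overlap. These gaps lay between Sema7a and Sema4a, Plxna4 and Sema5b, Plxnb3 and Sema3b, and Sema3d and Sema3g, and neighbours elsewhere in the order were not separated beyond the spread of 2 libraries.

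**Figure D1:**
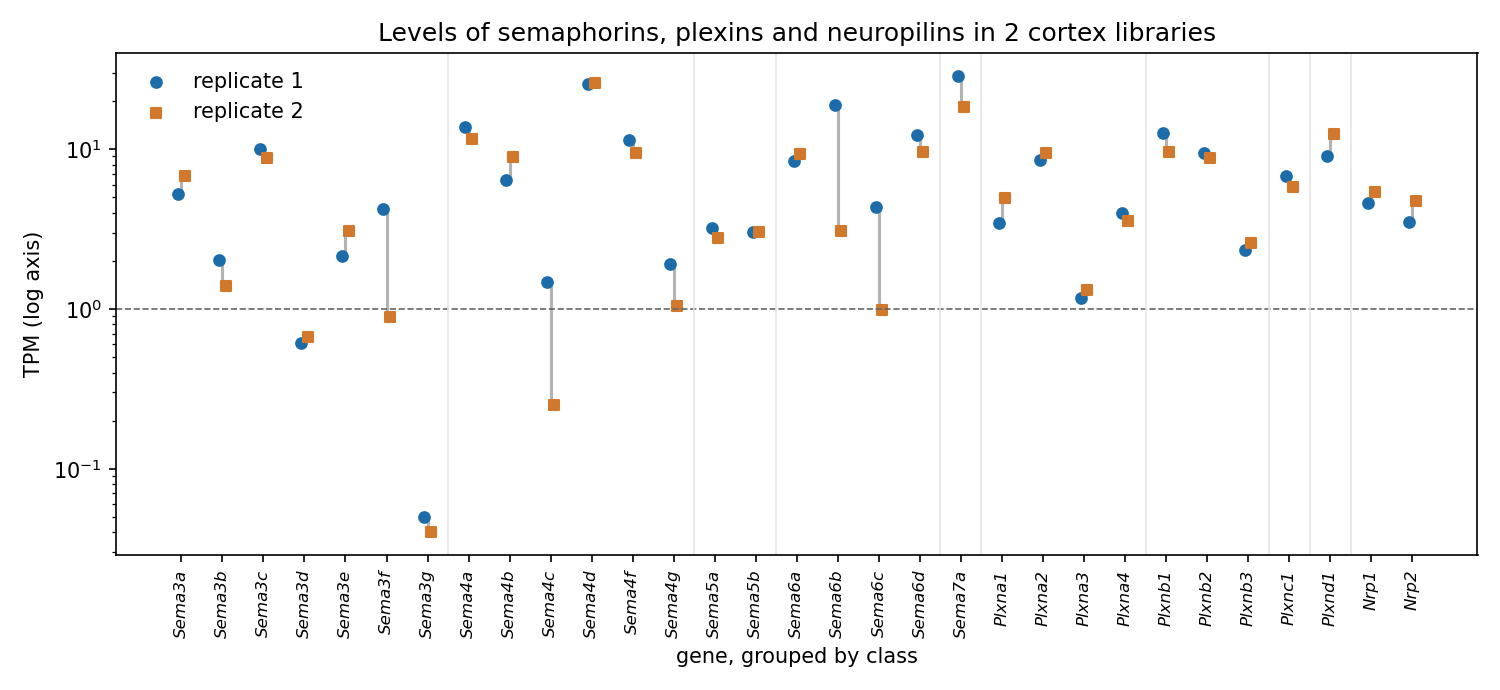
TPM (log axis) of each of the 31 coding members, grouped by class along the x axis, with replicate 1 as circles, replicate 2 as squares, a grey line joining the pair and a dashed line at 1 TPM. Sema4d, between 25.46 and 26.04 TPM, and Sema7a, between 18.22 and 28.75 TPM, stood highest by mean level, while Sema6b, Sema6c, Sema3f and Sema4c had the longest lines.

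Class 4 semaphorins, which span the membrane, were the most abundant class, with 60.5 TPM in replicate 1 and 57.2 TPM in replicate 2 over 6 genes. Sema4d, the ligand of Plxnb1 and known from lymphocytes as CD100, had 25.46 TPM in replicate 1 and 26.04 TPM in replicate 2. It was the highest of all members by mean level in the gene table, where it ranked 4512th among the 55536 genes. In the second quantification the order turned, with a mean of 22.4 TPM for Sema4d and 26.2 TPM for Sema7a. By longest coding sequence Sema4d was also lower, at 11.5 and 11.4 TPM against 27.0 and 16.1 TPM for Sema7a. The short transcript Sema4d-204 held much of the rest of the gene level of Sema4d, at 12.3 and 10.5 TPM. Sema4a, known from immune cells and the retina, had 13.8 and 11.5 TPM, and Sema4f, another transmembrane ligand, had 11.4 and 9.39 TPM. Sema4b, which carries a PDZ-binding end and is placed at synapses, had 6.42 TPM in replicate 1 and 8.97 TPM in replicate 2, and was the class member with the clearest lower value in replicate 1. Sema4g was low in both libraries, at 1.92 and 1.04 TPM, and Sema4c, a ligand of Plxnb2, was at 1.47 TPM in replicate 1 and 0.25 TPM in replicate 2.

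Sema7a, the semaphorin that is held to the membrane by a lipid anchor and binds Plxnc1 and beta 1 integrin, had 28.75 TPM in replicate 1 and 18.22 TPM in replicate 2 (23.5 ± 7.45 TPM). In replicate 2 it stood above every other member except Sema4d, and in replicate 1 above all of them. Its receptor Plxnc1 had 6.78 TPM in replicate 1 and 5.81 TPM in replicate 2, and the integrin gene Itgb1 had 13.8 and 14.4 TPM.

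Class 6 semaphorins, which signal as ligands and as receptors, differed most between the libraries, with 43.9 TPM in replicate 1 and 22.9 TPM in replicate 2 over 4 genes. Sema6b, a ligand of Plxna4, accounted for most of that gap, with 18.9 TPM in replicate 1 and 3.06 TPM in replicate 2. Sema6d, a ligand of Plxna1, had 12.3 and 9.56 TPM. Sema6a, a ligand of Plxna2 and Plxna4 in hippocampal and cerebellar wiring, had 8.37 TPM in replicate 1 and 9.33 TPM in replicate 2. Sema6c, as given above, was under 1 TPM in replicate 2 alone. Sema6a and Sema6d thus lay within a narrow band in both libraries while Sema6b and Sema6c did not.

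Class 3, the secreted ligands, summed to 24.4 TPM in replicate 1 and 21.7 TPM in replicate 2 over 7 genes. Sema3c, which binds either neuropilin, was the highest at gene level, at 10.1 and 8.81 TPM. Sema3a, the repellent first purified as collapsin and a component of perineuronal nets, had 5.27 TPM in replicate 1 and 6.79 TPM in replicate 2. Both lay above the rest of the class in each library at gene level. By longest coding sequence the order turned, with Sema3c at 3.53 and 3.24 TPM and Sema3a at 4.98 and 6.09 TPM. Sema3e, which binds Plxnd1 without a neuropilin, had 2.14 and 3.08 TPM, and Sema3b, a cue for axons of the anterior commissure, had 2.01 and 1.39 TPM. Sema3f, the repellent that acts through Nrp2, had 4.23 TPM in replicate 1 and 0.89 TPM in replicate 2. Sema3d stayed under 1 TPM at 0.61 and 0.67, and Sema3g, at 9 and 4 fragments, was close to absent. The class 5 ligands, which carry thrombospondin repeats, were even between libraries at gene level: Sema5a had 3.20 and 2.79 TPM and Sema5b had 3.01 and 3.05 TPM. Within Sema5a, the coding Sema5a-201 had 2.06 and 2.56 TPM, and the retained-intron transcript Sema5a-208 had 1.09 and 0.06 TPM.

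Class B plexins, receptors of class 4 semaphorins that also recruit exchange factors of small GTPases, summed to 24.45 TPM in replicate 1 and 20.9 TPM in replicate 2. Plxnb1 had 12.7 TPM in replicate 1 and 9.54 TPM in replicate 2, Plxnb2 had 9.45 and 8.80 TPM, and Plxnb3, a receptor of Sema5a, had 2.34 and 2.57 TPM. Plxnb1 and Plxnb2 lay above Plxnb3 in both libraries. Class A, the signalling partners of neuropilins, summed to 17.15 TPM in replicate 1 and 19.35 TPM in replicate 2. Plxna2 led it at 8.52 and 9.52 TPM, followed by Plxna1 at 3.46 and 4.95 TPM, Plxna4 at 4.0 and 3.57 TPM and Plxna3 at 1.17 and 1.31 TPM. Plxna1 and Plxna4 overlapped, and Plxna2 and Plxna3 stood clear of them on either side. Plxnd1, known for vessel patterning and for synapse choice in striatal circuits, had 9.05 TPM in replicate 1 and 12.4 TPM in replicate 2.

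The ends of the plexin coding sequences are shown because class B plexins carry a PDZ-binding end that binds the exchange factors encoded by Arhgef11 and Arhgef12. Each is the last 30 bases on the coding strand, from GENCODE M21 transcripts on mm10, with the final 4 codons and the stop in capitals. Plxnb1 lies at chr9:109117915-109117944, Plxnb2 at chr15:89156281-89156310, Plxnb3 at chrX:73772221-73772250, Plxna1 at chr6:89319376-89319405, Plxnd1 at chr6:115955740-115955769 and Plxnc1 at chr10:94793186-94793215, each in the last exon of its transcript.
Plxnb1: gctgtggaaaacaagGTCACGGATCTATAA
Plxnb2: gcgcttgagaataagGTTACAGACCTCTGA
Plxnb3: ttggtggaatacaaaGTGACTGACCTGTGA
Plxna1: gtggtggacacaatgGCCCTGAGCAGCTGA
Plxnd1: aatatctatgagtgtTACAGCGAGGCCTGA
Plxnc1: gatgaaaagaagaaaTGCAAGTGGATGTAA
The class B genes shared 10 to 12 of the 15 capital bases with one another, beside 4 to 8 with a class A gene, 6 or 7 with Plxnd1 and 4 to 7 with Plxnc1. The 4 class A genes shared 8 to 11 with one another, and Plxna2 shared 10 with Plxnd1. This count of bases, which includes the stop codon, was thus not particular to class B. The final 4 codons read valine, threonine, aspartate and leucine in all 3 class B genes, and in none of the other plexins. Arhgef11 had 7.77 TPM in replicate 1 and 3.24 TPM in replicate 2, and Arhgef12 had 6.91 and 7.50 TPM.

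The co-receptors were lower than the leading plexins and nearly even with each other. Nrp1, which binds Sema3a and also vascular endothelial growth factor, had 4.58 TPM in replicate 1 and 5.38 TPM in replicate 2. Nrp2, the co-receptor for Sema3f, had 3.51 and 4.72 TPM. The 2 genes overlapped, Nrp1 holding 54.8% of their summed mean level. Set beside their ligands at gene level, Nrp1 lay under Sema3a in both libraries. Nrp2 lay under Sema3f at 4.23 TPM in replicate 1 and above it at 0.89 TPM in replicate 2. Most of the Sema3f level in replicate 1 was the 685-base transcript Sema3f-206, at 2.79 TPM. Sema3f-201, with a coding length of 2262 bases, had 0.60 and 0.43 TPM. That was under the coding transcript Nrp2-205 alone, at 1.28 and 1.95 TPM.

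The antisense RNAs of Plxna4 were scarce. Plxna4os1 had 40 fragments in replicate 1 and 15 in replicate 2, Plxna4os2 had 3 and 0, and Plxna4os3 had none in either library. Plxna4 itself had 2034 fragments in replicate 1 and 928 in replicate 2. Of these RNAs, Plxna4os3 alone overlaps an exon of Plxna4, over 110 bases or 0.780% of the exon bases of Plxna4. Whether counting used strand is not known here, so reads from antisense partners cannot be told apart. The largest such overlap was of Plxna1 with Gm26811, over 10.7% of the exon bases of Plxna1, and Gm26811 stood at 0.010 TPM in replicate 1 and was listed at 0 in replicate 2. Sema4c shared 7.27% of its exon bases with D430040D24Rik, at 0.26 and 0.18 TPM, which in replicate 2 is close to the level of Sema4c itself.

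Each gene's fragments in replicate 1 and replicate 2 were then compared by an exact binomial test (two-sided, TMM library sizes), with Benjamini-Hochberg adjustment over the 14656 genes whose CPM averaged 1 or more. That test sets 1 library against 1, measures counting error only, and compares these libraries, not conditions. Of 30 members tested (Sema3g and the 3 antisense RNAs were too low), 20 were called at an adjusted p under 0.05, 15 higher and 5 lower in replicate 1. That was 66.7% of tested members beside 62.6% of all tested genes. Calls higher in replicate 1 made up 36.4% of all tested genes and calls lower made up 26.2%. With total-count scaling the split of all tested genes turned to 28.2% higher and 39.4% lower, and that of the members was 13 higher and 7 lower. At 1.5-fold or more, 5 members were called, 16.7% beside 20.5% of all tested genes, all 5 higher in replicate 1 beside 17.2%, and 0 lower beside 3.22%. The total shares lay near the background, so the number called is not a result about the family. The median log2 ratio was 0.20 over the members, against 0.03 over all tested genes, and the median absolute log2 ratio was 0.31 against 0.25.

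The 5 members past 1.5-fold were all semaphorins. Sema6b had 2707 fragments in replicate 1 and 225 in replicate 2, a log2 ratio of 2.69 on CPM + 0.5 and a 95% Clopper-Pearson counting interval of 2.57 to 2.97 without the pseudocount (adjusted p = 4.38e-281, exact binomial test, Benjamini-Hochberg). Sema6c had 415 and 52 fragments (log2 ratio 1.91, interval again without the pseudocount 1.75 to 2.62), and Sema3f had 214 and 35 (1.46, interval 1.27 to 2.35). Sema4c had 122 and 17 fragments (1.42, interval 1.28 to 2.84), and Sema7a had 3414 and 1057 (0.86, interval 0.77 to 0.97). The intervals of Sema6b and Sema7a rested on at least 225 fragments in each library and were narrow, while those of Sema3f and Sema4c rested on 35 and 17 fragments in replicate 2. The pseudocount pulled the low genes toward 0, and for Sema6c, Sema3f and Sema4c the ratio without it was higher.

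Among the plexins 5 were called higher and 1 lower in replicate 1, all under 1.5-fold. Plxnb1, at 2494 fragments in replicate 1 against 1030 in replicate 2, had a log2 ratio of 0.44 (adjusted p = 4.73e-17, exact binomial test, Benjamini-Hochberg). Plxnc1, Plxnd1, Plxna1 and Plxna4 had log2 ratios between 0.30 and 0.40, and Plxna3, with 236 and 170 fragments, had -0.32. For Plxna2, Plxnb2 and Plxnb3 the log2 ratios were -0.04, 0.08 and 0.02 and missed the threshold. Of the neuropilins, Nrp2 was called lower in replicate 1 (774 and 528 fragments, log2 ratio -0.27), and Nrp1 was not called (627 and 379 fragments, -0.10, interval -0.29 to 0.09). The other semaphorins called lower in replicate 1 were Sema4b (-0.36), Sema3e (-0.37) and Sema3a (-0.17). Those called higher under 1.5-fold were Sema4f (0.40), Sema6d (0.38), Sema4a (0.36), Sema3c (0.25) and Sema4d (0.16). The remaining 6 tested semaphorins, Sema3b, Sema3d, Sema4g, Sema5a, Sema5b and Sema6a, had log2 ratios between -0.08 and 0.24 and were not called. With total-count scaling Sema4d (0.037) and Sema3c (0.12) were no longer called, while Nrp1 (-0.22) and Plxna2 (-0.17) were. Plxna3 was not called in the second quantification (-0.17) or without the filter on low genes. In the second quantification 24 members were called, with Sema5b (0.35), Sema4g (0.34), Plxnb2 (0.11), Plxna2 (-0.09) and Nrp1 (-0.17) added. After removal of trends on GC and length, the log2 ratios of several members called higher under 1.5-fold were close to 0: -0.0038 for Plxnd1, 0.029 for Plxna1, 0.030 for Sema4d and 0.095 for Plxnb1, with 0.12 for Sema4f and 0.15 for Sema4a.

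**Figure D2:**
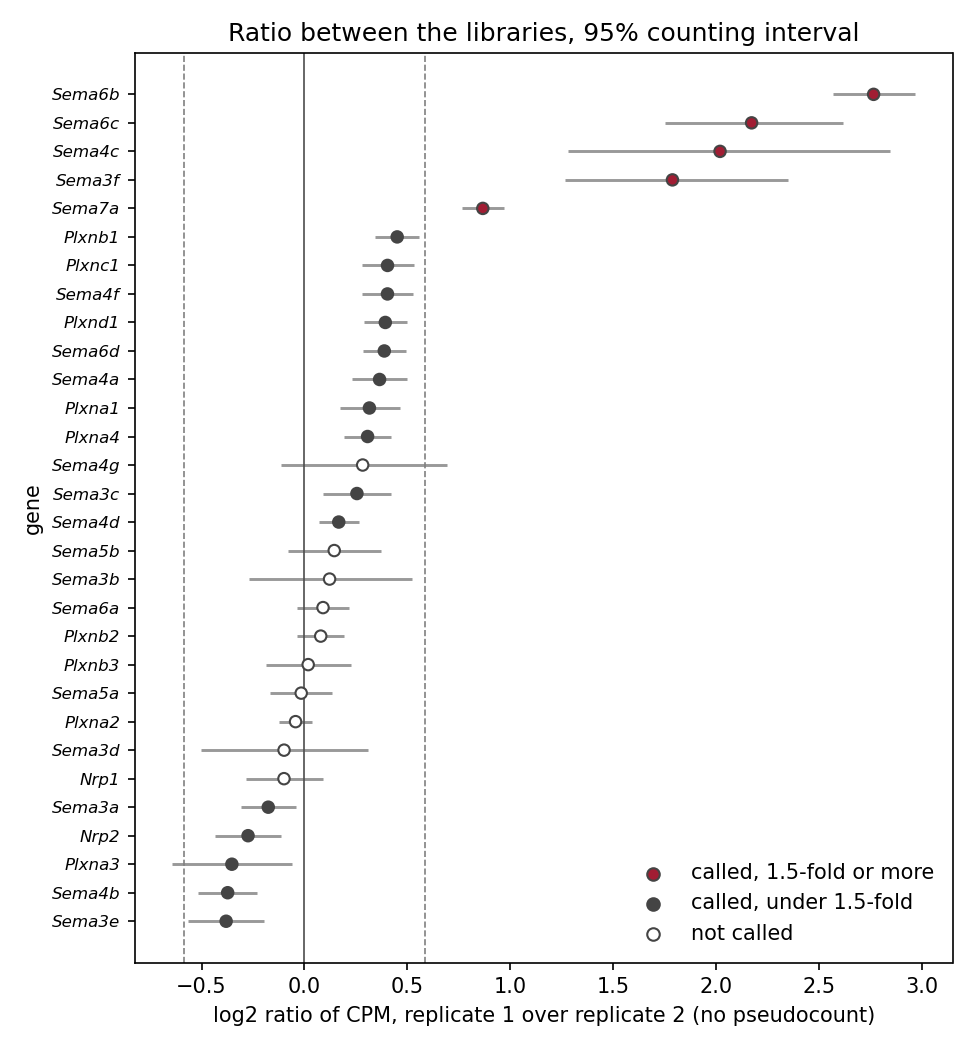
Log2 ratio of CPM, replicate 1 over replicate 2, without a pseudocount, for the 30 tested members, with bars for the 95% Clopper-Pearson counting interval and dashed lines at 1.5-fold in either direction. Filled red points, the 5 semaphorins called at 1.5-fold or more, lie to the right of the dashed lines, and the points of all plexins and neuropilins lie between them.

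The 5 semaphorins that differed most also had GC-rich messages. The GC content of a gene's transcripts, weighted by TPM, was 63.5% for Sema6b, 62.8% for Sema6c, 59.8% for Sema4c, 58.8% for Sema3f and 58.3% for Sema7a, against a median of 56.1% over the tested members and 50.8% over all tested genes. Sema6b and Sema6c were the only members above 60%. Over the 30 members the Spearman correlation between GC content and log2 ratio was 0.64, and over 14645 tested genes it was 0.31. These points share the same 2 libraries and are genes, not replicates. Members of like GC content had a range of ratios. Sema5b at 59.3% had a log2 ratio of 0.14 by the gene table against 0.35 by the second quantification, and Plxnd1 at 59.1% had 0.39 against 0.35. The smoothed trend on GC over all genes stood at 0.63 for Sema6b, and after trends on GC and length were removed its log2 ratio was 2.00. After the same removal Sema6c kept 1.30, Sema3f 1.23 and Sema4c 1.05, while Sema7a went under 1.5-fold at 0.56. That left 4 members higher past 1.5-fold, beside 14.1% of all tested genes, and 1 lower, Sema4b at -0.61, beside 3.91%. These counts use the adjusted p-values from before the removal, since only the ratios were changed. Limiting the test to genes with a CPM averaging 5 or more kept Sema6b, Sema6c and Sema7a, 3 members higher past 1.5-fold of 25 tested, beside 17.6%. The neuronal marker Slc17a7 moved the same way, with 82.7 TPM in replicate 1 and 37.2 TPM in replicate 2, and of 20 markers tested 8 were called higher and 8 lower in replicate 1. The summed level of all 21 markers was 5963 TPM in replicate 1 and 6608 TPM in replicate 2. The part of tissue makeup in these ratios was not tested.

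**Figure D3:**
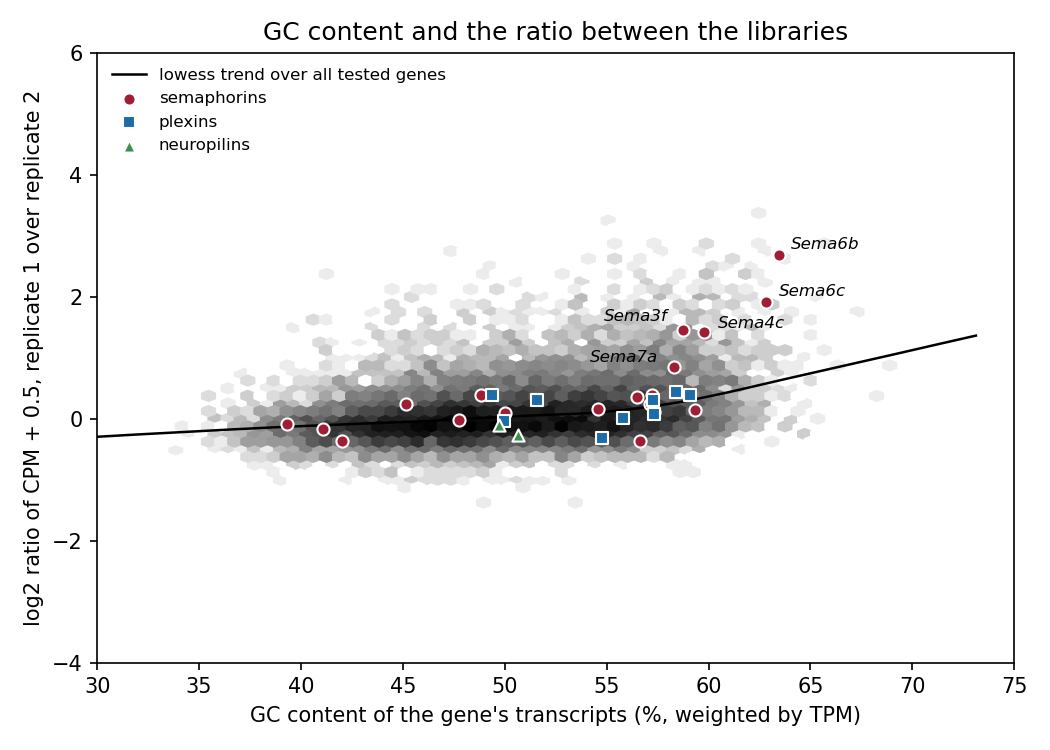
GC content of each gene's transcripts (%, x axis) against the log2 ratio of CPM + 0.5, replicate 1 over replicate 2 (y axis), with all tested genes as grey hexagons, darker where genes are more numerous on a log scale, the smoothed trend as a black line, and semaphorins, plexins and neuropilins as red circles, blue squares and green triangles. Sema6b at 63.5% GC and a log2 ratio of 2.69 lies farthest above the trend of the members.

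Coding stretches of these genes are shown as examples of their GC-rich sequence, and do not locate the GC content of the whole transcript. Each is the 120 bases of highest GC content within 1 coding exon, on the coding strand, from GENCODE M21 transcripts on mm10, and capitals mark unbroken runs of 6 or more G or C. The transcript was the one of highest mean TPM among those with at least 80% of the gene's longest coding sequence. Of the genes past 1.5-fold, 4 are shown, from Sema6b-201 (chr17:56124611-56124730, exon 17 of 17), Sema6c-201 (chr3:95172676-95172795, exon 20 of 20), Sema7a-201 (chr9:57940163-57940282, exon 1 of 14) and Sema4c-201 (chr1:36549992-36550111, exon 15 of 15).
Sema6b: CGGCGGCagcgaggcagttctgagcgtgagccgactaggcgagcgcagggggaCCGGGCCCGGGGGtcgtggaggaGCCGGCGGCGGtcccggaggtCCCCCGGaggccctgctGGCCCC
Sema6c: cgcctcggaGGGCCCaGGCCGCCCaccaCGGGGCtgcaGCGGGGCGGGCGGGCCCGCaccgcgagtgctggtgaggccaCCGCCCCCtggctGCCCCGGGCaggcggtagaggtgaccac
Sema7a: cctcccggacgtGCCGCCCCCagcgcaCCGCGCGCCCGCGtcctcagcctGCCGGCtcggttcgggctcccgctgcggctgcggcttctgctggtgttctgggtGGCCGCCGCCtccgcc
Sema4c: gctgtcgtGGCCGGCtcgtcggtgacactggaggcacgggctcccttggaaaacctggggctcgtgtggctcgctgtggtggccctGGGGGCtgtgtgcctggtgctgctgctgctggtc
For comparison, 3 members under 1.5-fold, picked after their values were seen, come from Sema6d-206 (chr2:124664354-124664473, exon 19 of 19), Sema4d-201 (chr13:51703061-51703180, exon 16 of 16) and Sema3a-201 (chr5:13581006-13581125, exon 14 of 17). The log2 ratios of these genes were 0.38, 0.16 and -0.17. Transcripts of these genes were also lower in GC, at 48.9%, 54.6% and 41.1%, so the comparison is not matched for GC.
Sema6d: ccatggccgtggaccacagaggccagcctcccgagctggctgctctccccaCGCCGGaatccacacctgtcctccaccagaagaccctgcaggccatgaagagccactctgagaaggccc
Sema4d: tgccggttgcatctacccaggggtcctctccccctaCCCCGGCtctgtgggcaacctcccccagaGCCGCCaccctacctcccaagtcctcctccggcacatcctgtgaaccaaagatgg
Sema3a: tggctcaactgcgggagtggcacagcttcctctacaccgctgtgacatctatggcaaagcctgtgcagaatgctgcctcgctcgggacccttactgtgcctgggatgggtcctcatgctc
The stretches of Sema6c (80.8% GC, 56 bases in capitals), Sema6b (79.2%, 44 bases) and Sema7a (79.2%, 38 bases) were dense with such runs. That of Sema4c had 69.2% GC and 13 such bases, that of Sema6d 65.8% and 6, that of Sema4d 65.0% and 13, and that of Sema3a 59.2% and none. Over whole transcripts the picture differed, since the richest 120-base window reached 90% GC in Plxnd1, 88.3% in Plxnc1 and 86.7% in Plxna1, all under 1.5-fold, beside 85.8% in Sema6b. Sema6d and Sema6c were level there at 80.8%, with 80% in Sema7a and 78.3% in Sema4c. In Sema6b the stretch spans coding bases 1932 to 2051 and in Sema6c bases 2184 to 2303, both in the last exon, and in Sema7a it spans bases 13 to 132, close to the start codon. The GC content of that window had a Spearman correlation of 0.59 with the log2 ratio over the members and 0.35 over all tested genes, beside 0.64 and 0.31 for the mean GC content.

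Levels of transcripts moved separately from those of genes for some receptors. Plxnd1 had 2401 fragments in replicate 1 and 1032 in replicate 2, a log2 ratio of 0.39, but its TPM was lower in replicate 1 (9.05 against 12.4). The full-length Plxnd1-201 held 97.8% of the gene's TPM in replicate 1 and 58.2% in replicate 2. In replicate 2 the 442-base retained-intron transcript Plxnd1-204 was assigned 28.65 fragments, which per length came to 4.40 TPM, and in replicate 1 it was assigned none. Plxnd1-201 itself stood at 8.85 TPM in replicate 1 and 7.20 TPM in replicate 2, the same direction as the fragments.

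Plxna1 was the other member whose TPM and fragments took opposite directions at 1.1-fold or more each. It had 1235 and 560 fragments (log2 ratio 0.31), and Plxna1-202, which encodes the receptor, held 100% of its TPM in replicate 1 and 58.8% in replicate 2. The 735-base processed transcript Plxna1-204, with 16.48 fragments and 1.32 TPM in replicate 2 and none in replicate 1, held the largest of the remaining shares. For both plexins the coding transcript alone was higher in replicate 1, and the opposite direction of the gene TPM came with a few fragments on short transcripts.

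Short transcripts also took large shares of 3 abundant members in both libraries. Sema4d-204, of 1249 bases with a coding length of 555, held 48.2% of the TPM of Sema4d in replicate 1 and 40.5% in replicate 2, while Sema4d-201, with a coding length of 2583 bases, held 34.2% and 35.9%. By fragments the order was the other way, 535 and 242 for Sema4d-204 against 1511 and 832 for Sema4d-201. Plxnb1-202, of 585 bases, held 40.6% and 35.7% of the TPM of Plxnb1 on 87.1 and 32.0 fragments. Sema3c was split between the coding Sema3c-201 (35.1% and 36.8%), the short Sema3c-203 (38.0% and 26.3%) and the nonsense-mediated decay transcript Sema3c-204 (26.3% and 36.9%). The gene levels of Sema4d, Plxnb1 and Sema3c therefore exceed those of their longest coding sequences. The 3 Sema4d transcripts with a coding length of 2583 bases summed to 11.5 TPM in replicate 1 and 11.4 TPM in replicate 2. Plxnb1-201 stood at 7.03 and 5.71 TPM, and Sema3c-201 at 3.53 and 3.24 TPM.

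Several other members were carried by 1 coding transcript. Sema6b-201 held 98.1% and 98.9% of its gene's TPM, Sema4f-201 held 98.2% and 99.1%, and Plxna2-201 held 94.4% and 97.1%. Nrp1-201 held 94.6% and 95.6%, whereas Nrp2 was spread over Nrp2-205 (36.6% and 41.4%), Nrp2-201 (34.1% and 18.8%) and Nrp2-204 (18.9% and 24.6%), with coding lengths of 2703, 2718 and 2727 bases. The low members were unsettled. Sema3f-206, of 685 bases, held 66.0% of the TPM of Sema3f in replicate 1 and was listed at 0 in replicate 2, while Sema3f-201 held 14.3% and 48.1%. Plxna3 had 54.2% of its TPM in retained-intron transcripts in replicate 1 and 33.6% in replicate 2, on 236 and 170 fragments over the whole gene.

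**Figure D4:**
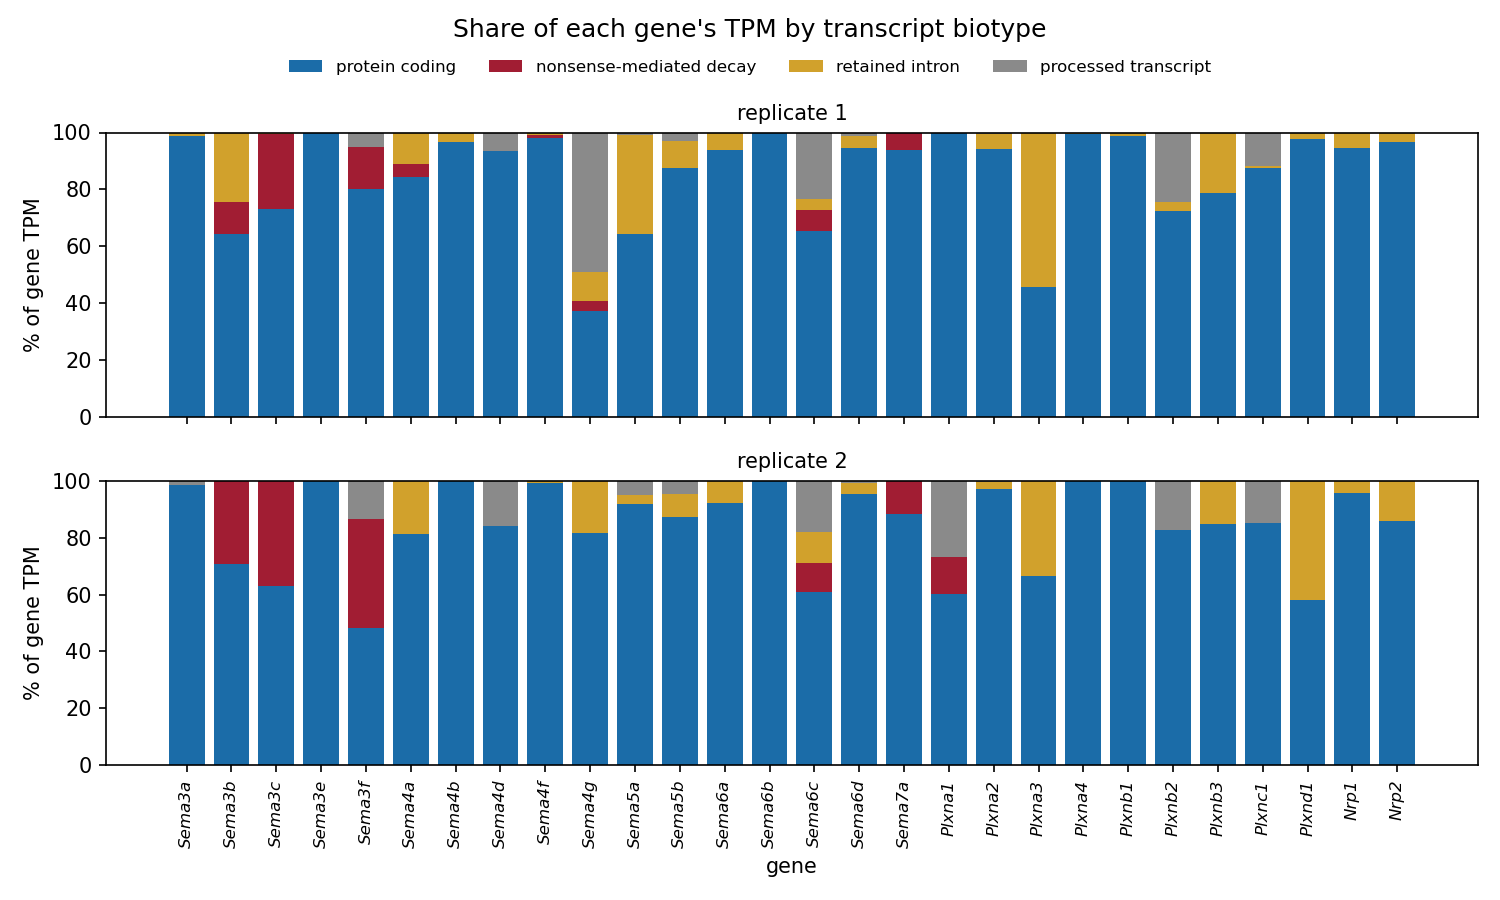
Share of each gene's TPM (%, y axis) by annotated transcript biotype for the 28 coding members with a mean TPM of at least 1, replicate 1 above replicate 2. Plxnd1 was 97.8% protein coding in replicate 1 and 58.2% in replicate 2, while Sema6b, Plxna4 and Sema3e were protein coding almost throughout in both libraries.

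The second transcript table, the authors' second quantification of the same reads, kept the members at similar levels. Of the 28 members with a mean TPM of at least 1, 0 were apart by 2-fold or more in both libraries. The gene table gave higher values for 27 of them in both libraries, with a median log2 ratio of the gene table over the second of 0.35 in replicate 1 and 0.27 in replicate 2, against 0.38 and 0.27 over all genes at that level. The members' offset between the tables was close to that of all genes. The exception was Sema7a, with 28.75 TPM in the gene table and 31.0 TPM in the second table in replicate 1, and 18.22 and 21.5 TPM in replicate 2. There the second table gave the 417-base nonsense-mediated decay transcript Sema7a-202 12.01 TPM in replicate 1 and 9.82 TPM in replicate 2, against 1.78 and 2.09 TPM in the first transcript table. Plxnb2 was the farthest apart in the usual direction, by 0.81 in replicate 1 and 0.60 in replicate 2 on the log2 scale. The processed transcript Plxnb2-205 held 24.4% and 17.2% of its TPM in the first transcript table, and 4.75% and 3.21% in the second.

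**Figure D5:**
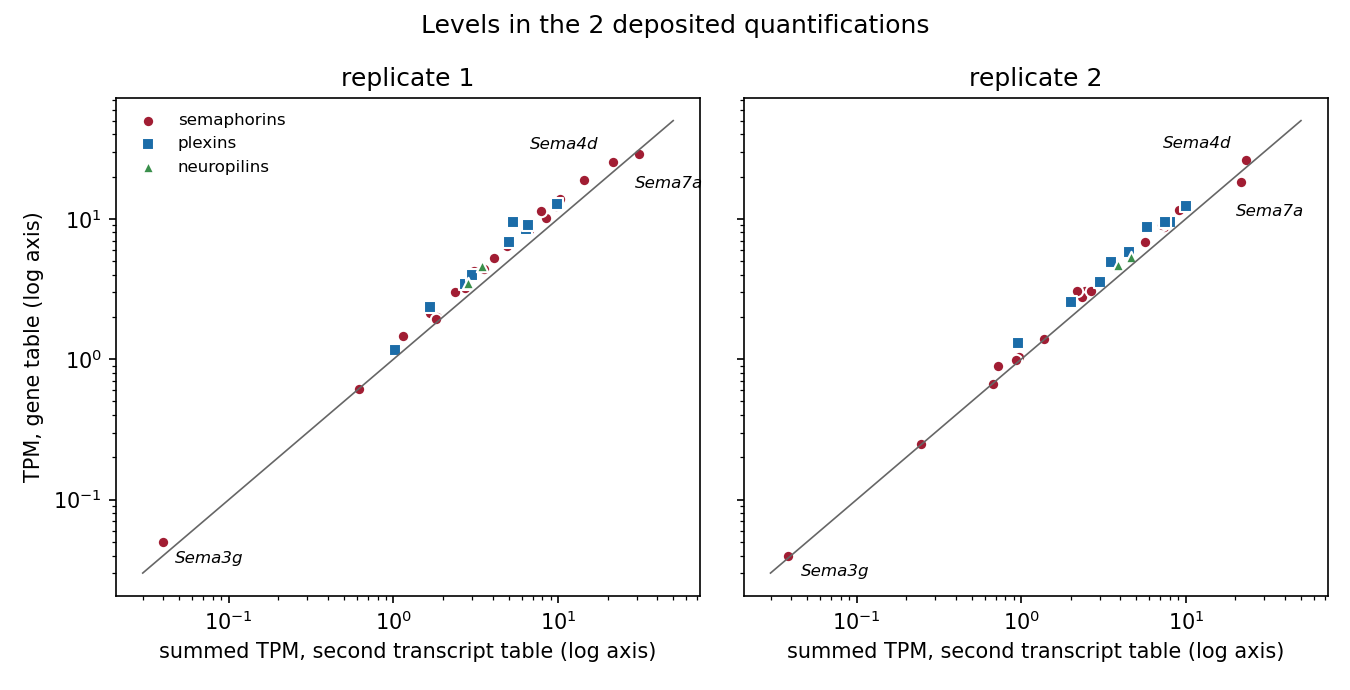
TPM in the gene table (y axis, log) against summed TPM in the second transcript table (x axis, log) for the 31 coding members, replicate 1 on the left and replicate 2 on the right, with the line of equal values. Most points lie a little above the line, and Sema7a, at 18.22 against 21.5 TPM in replicate 2, lies below it.

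Of 15 members with a mean TPM of at least 5, 13 had the same main transcript by mean TPM in both quantifications. The exceptions were Sema4a, led by Sema4a-214 in the first table and Sema4a-213 in the second, and Sema3c, led by Sema3c-201 and by Sema3c-204. Within each library, though, both quantifications put Sema3c-203 first in replicate 1 and Sema3c-204 first in replicate 2. Sema6d-206, counted as shared, led in neither library of the second table, where Sema6d-205 and Sema6d-208 did. For Plxnd1 and Plxna1 the shift between libraries appeared in the second table as well. There Plxnd1-201 held 94.6% in replicate 1 and 55.2% in replicate 2, and Plxna1-202 held 96.3% and 69.3%. Both quantifications used the same reads, so this does not add a sample.

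The partners of the pathway are given by list, with counts called in the same comparison between libraries. Of the other receptors and co-receptors of semaphorins, 14 of 15 were tested, with 3 higher and 2 lower in replicate 1 (36.4% and 26.2% of all tested genes) and 0 past 1.5-fold in either direction (20.5%). Nrcam, the adhesion molecule that joins neuropilins in Sema3 complexes, had 93.0 TPM in replicate 1 and 95.3 TPM in replicate 2, and L1cam, its relative, had 20.35 and 21.9 TPM. Timd2, a receptor described for Sema4a on lymphocytes, was listed at 0 in both.

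Neuropilins also bind growth factors. Of 8 such ligands tested, 5 were higher and 0 lower in replicate 1 (36.4% and 26.2% of all tested genes), and 4 were higher past 1.5-fold (17.2%). Their median log2 ratio was 0.61, against 0.03 over all tested genes. Vegfb, which binds Nrp1, had 119 TPM in replicate 1 and 63.2 TPM in replicate 2, and Vegfa, the main angiogenic factor and Nrp1 ligand, had 5.46 and 1.75 TPM. Vegfc, the lymphatic factor that binds Nrp2, had 2.53 and 1.44 TPM, and Tgfb1, a cytokine that neuropilins also bind, had 1.68 and 0.39 TPM. Fgf2 was the lowest of the list at 0.49 and 0.35 TPM. 

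Among the small GTPases and exchange factors that plexins act on, 17 of 18 were tested, 11 were higher and 1 lower in replicate 1 (36.4% and 26.2% of all tested genes), and 7 were higher past 1.5-fold (17.2%). Rac1, which drives lamellipodia, had 396 TPM in replicate 1 and 78.9 TPM in replicate 2, and Mras, a Ras relative that plexins inactivate, had 260 and 163 TPM. Rhod was the lowest, at 0.76 and 0.93 TPM. Of the kinases of the pathway 16 of 17 were tested, with 7 higher and 7 lower (36.4% and 26.2% of all tested genes), 3 of them higher and 1 lower past 1.5-fold (17.2% and 3.22%). Camk2a, a synaptic kinase, had 848 and 1083 TPM, Pak1, an effector of Rac, had 222 and 224 TPM, and Fes had 0.73 and 0.68 TPM.

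The collapsin response mediator proteins, which carry Sema3a signals to microtubules, had 3 genes higher and 2 lower of 5 tested (36.4% and 26.2% of all tested genes) and 0 past 1.5-fold (20.5%). Dpysl2 led at 263 TPM in replicate 1 and 329 TPM in replicate 2, before Crmp1 at 80.3 and 72.2 TPM, and Dpysl5 was lowest at 3.22 and 2.61 TPM. Of 12 MICAL and cytoskeletal genes, 5 were higher and 3 lower (36.4% and 26.2% of all tested genes), 4 of them higher past 1.5-fold (17.2%). Cfl1, the actin-severing cofilin, had 1293 TPM in replicate 1 and 671 TPM in replicate 2, Gipc1, which binds the inner end of Nrp1, had 82.3 and 105.6 TPM, and Micall2 had 1.42 and 0.58 TPM. Of the perineuronal net genes on the list, 10 of 12 were tested, with 5 higher and 1 lower (36.4% and 26.2% of all tested genes). The 1 past 1.5-fold (17.2%) was Acan, the aggrecan core protein gene, with 107 fragments in replicate 1 and 23 in replicate 2 and a log2 ratio of 1.01. Bcan had 140 and 138 TPM, Ncan had 87.1 and 108 TPM, and the hyaluronan synthase Has2 was listed at 0 in replicate 1 and stood at 0.010 TPM in replicate 2.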

How the data were processed

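Poly(A) RNA was measured in 2 left cortex libraries of 1 group. Each had a gene table and 2 transcript tables on mm10 with GENCODE M21, per the notes deposited with the tables. Per the file headers, the gene and first transcript tables hold expected counts, TPM and, as a percent, each transcript's share of its gene's TPM. The authors scaled TPM within each library before they deposited it. The posterior SD of each count in the first transcript tables was deposited too. The second transcript tables hold estimated counts and TPM, made by the authors from the same reads, per the deposited notes. The labels, headers and notes used here give neither quantifier names and versions nor the use of strand.

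Replicates 1 and 2 held 51888490 and 26776276 fragments by the gene tables, and 76100574 and 46367538 by the second transcript tables. Rows that name no gene held 1.73e-05% and 3.35e-05% of fragments and stayed out. Expected counts were rounded. TMM sizes came from edgeR 4.0.16 in R 4.3.3, because 1 library against 1 leaves no residual degrees of freedom for its quasi-likelihood test, and an exact binomial test (scipy 1.17.1) with Benjamini-Hochberg adjustment was used at a mean CPM of at least 1. Counting intervals are Clopper-Pearson at 95%. Intervals and p-values cover counting error only, and reads carried no molecular identifiers. No spread between libraries was estimated, and a difference between these libraries may be technical. Trends were lowess fits (fraction 0.3, statsmodels 0.14.6) on GC content, then length. Their removal changed the ratios only, and the adjusted p-values of the main test were kept. The code was tested on simulated data.

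Members followed the symbol rule and were all named. Of each pathway list the 2 highest genes and the lowest by mean TPM were named. In lists of 10 or fewer, any called at 1.5-fold or more were named too. Outside that rule, Arhgef11, Arhgef12, Itgb1, Acan and the tissue markers were named besides. Members and lists were chosen with earlier results of these data known. Alternatives were total-count scaling, DESeq2 1.42.0 size factors, other filters, pseudocounts and thresholds, the second quantification, removal of the GC and length trends, and each library alone. Promoter and protein sequences were not used here, and the codons of the plexin ends were read by the genetic code. The coding stretch of Sema3f is not reported here.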

Additional observations from a re-analysis of the deposited data

How the results depend on the processing

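No paired analysis was possible because the labels give 1 group, with no second group that shares its replicate numbers. With 2 libraries, levels rest on a single difference, and depth limits Sema3g, the Plxna4 antisense RNAs and, among tested members, Sema4c and Sema3f most.

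With DESeq2 size factors or a pseudocount of 0.1 all 30 log2 ratios kept their direction and side of the threshold. Values that reversed belonged to Plxnd1 and to 5 members that were not called. With total-count scaling, the log2 ratio was -0.049 for Plxnb2, -0.038 for Sema6a, -0.11 for Plxnb3 and -0.0060 for Sema3b. That scaling moved the median of all tested genes to -0.09. With GC and length trends removed it was -0.0038 for Plxnd1, -0.22 for Plxnb2, -0.031 for Sema6a, -0.26 for Sema5b, -0.21 for Plxnb3 and -0.13 for Sema3b. In the second quantification it was -0.0079 for Plxnb3.

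The count of members at 1.5-fold or more higher in replicate 1 was 3 at a mean CPM of at least 5, where Sema3f and Sema4c were not tested. With trends removed, 1 member was lower at that size, Sema4b at -0.61. Members detected numbered 14 at a TPM of at least 5. The second quantification gave summed levels of 43.4 TPM for plexins and 7.40 TPM for neuropilins. Without the 5 members past 1.5-fold, a setting added after seeing the data, the mean summed level of semaphorins was 104 TPM. At 1.5-fold, 1 member was apart between quantifications. Main transcripts were shared by 23 members where the gene reached 1 TPM and by 7 where it reached 10. With each library alone, 26 to 29 members were detected, summed levels were 125.9 to 163.75, 57.4 to 58.4 and 8.09 to 10.1 TPM for semaphorins, plexins and neuropilins, 0 members were apart, and 12 to 13 main transcripts were shared.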
